A study of Rattus norvegicus with 6 samples.

Results

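Entpd1, Nt5e, Ada, Pnp, Xdh, Slc28a2, Slc28a1 and Slc29a1, 8 genes of purine breakdown, adenosine formation and nucleoside uptake, were followed by name in nuclei of the rat ileum. They were chosen for what is known of them at the tip of the villus, and all 8 were among the 28282 gene symbols of the count tables. The study asked how the ileum is remodelled in severe acute pancreatitis (SAP). Male wild type Sprague-Dawley rats, 6 weeks old and acclimatized for 7 days, received 3% sodium taurocholate backwards into the pancreatic duct at 0.1 mL per 100 g of body weight, after which the duct was clamped for 5 min (SAP, 3 rats). Control rats (CON, 3 rats) had the abdomen opened without infusion. Both groups were anesthetized with pentobarbital, fasted after the operation and killed at 24 h, and each rat gave 1 library of single nuclei, all labelled as batch 1. The infused agent and the state of the pancreas therefore came together, and ileum with visible lymphoid patches was avoided at collection, which limits the immune nuclei sampled.

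These genes form a chain across the membrane of the cell. ENTPD1 (CD39) trims extracellular ATP and ADP to AMP, NT5E (CD73) turns AMP into adenosine, and ADA deaminates adenosine to inosine. Inside the cell PNP splits inosine and guanosine into base and sugar phosphate, and XDH oxidizes hypoxanthine and xanthine to urate. SLC28A2 (CNT2) and SLC28A1 (CNT1) take up nucleosides with sodium, preferring purine and pyrimidine nucleosides respectively, and SLC29A1 (ENT1) lets nucleosides equilibrate across the membrane. Enterocytes of the upper villus are known for breaking down dietary and luminal nucleotides and taking up the products, while CD39 is known from endothelium and immune cells.

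Of 90461 barcodes, 40970 passed the study's limits (at least 1200 UMIs, at least 500 genes, at most 5% mitochondrial UMIs), 23920 of CON and 17050 of SAP. A UMI is a molecular tag that marks 1 captured transcript. The UMIs of passing nuclei summed to between 5549260 and 28771508 per library. Libraries of SAP replicates 1 and 2 stood apart in mitochondrial UMIs, with medians of 1.84% and 1.29% against 0.125% to 0.70% in CON and 0.387% in SAP replicate 3. Between 195 and 746 barcode names were shared by any 2 libraries. Levels are given in CPM, the gene's UMIs scaled by the total UMIs of the same nuclei, summed per library, so that each rat gives 1 value.

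Classes were named from marker genes and formed without the 8 genes, and 17 of them, numbered clusters included, had 10 or more nuclei from each rat. The enterocyte-like class held 4522 nuclei and had 11 of its 12 markers detected. It was split into 4 sub-clusters after its values were seen, of 369, 1399, 845 and 1909 nuclei, so that levels could be ordered over 20 sets of nuclei. Apoa4, an apolipoprotein known from the villus tip, stood at 2940, 898, 365 and 163 CPM in sub-clusters 1 to 4, the order by which they were numbered, and Creb3l3, a transcription factor of the upper villus, at 654, 329, 269 and 202 CPM. Of the 8 tip landmark genes listed, Egfr, Pmp22, Ifrd1 and Serpini1 were also highest in sub-cluster 1, while Krt20 was highest in sub-cluster 3 (1077, 752, 1457 and 936 CPM) and Klf4 in sub-cluster 2 (267, 369, 159 and 258 CPM). Pmp22 was close in sub-clusters 1 and 2 (212 and 196 CPM), and Serpini1 was scarce throughout (5.67, 3.86, 2.32 and 3.94 CPM). These landmark values are pooled over libraries and carry no spread. Sub-cluster 1 was led by Isg15 and Rsad2, both interferon-induced, and by the stress-response factor Atf3, and sub-cluster 2 by Nt5e and Slc28a2 themselves although neither had entered the clustering. Sub-cluster 3 was led by Fabp6, the ileal bile acid binding protein, and held the highest levels of Reg3b, Reg3g and Lypd8, which are known from the lower villus. Sub-cluster 4 was led by Slc5a12, Slc6a19 and Mme, transporter and peptidase genes of the brush border. Median mitochondrial shares were 1.28%, 0.921%, 1.67% and 0.682% in that order. Clusters 1, 2, 8 and 12 kept a number in place of a name, and cluster 1, with Si and Ceacam20 leading, was closest to the enterocyte-like class. Of the 8 genes under study, 3 were highest in the sub-cluster with most tip landmarks at their highest, namely Ada, Slc28a2 and Nt5e, while Slc28a1 and Xdh were highest in sub-cluster 4, and Entpd1, Slc29a1 and Pnp were highest outside the epithelium.

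**Figure D1:**
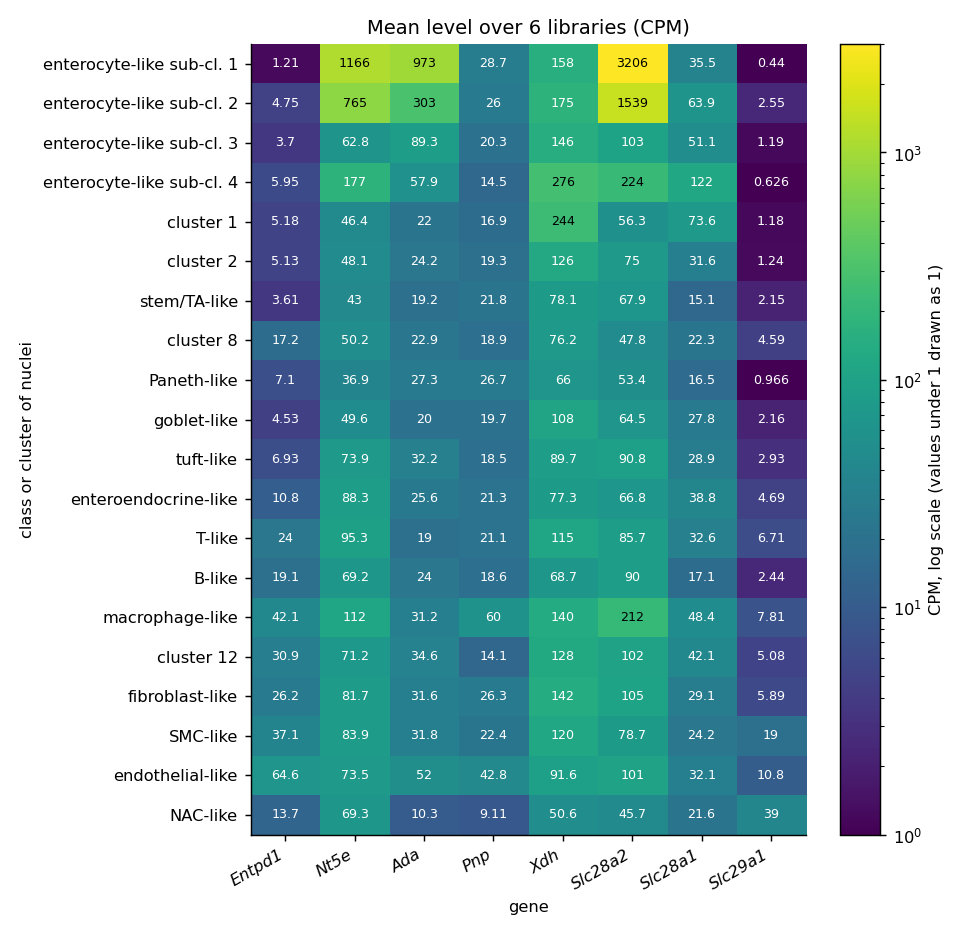
Mean level over 6 libraries of each gene (columns) in each class, cluster and enterocyte-like sub-cluster (rows), in CPM on a log colour scale, with the value written in each cell. Ada, Nt5e and Slc28a2 were brightest in enterocyte-like sub-clusters 1 and 2, and Entpd1 was darkest in sub-cluster 1. Values under 1 CPM share the darkest colour, as Slc29a1 did in sub-clusters 1 and 4 and in Paneth-like nuclei.

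Ada was concentrated in the 2 sub-clusters with the most Apoa4. In sub-cluster 1 it stood at 530, 348 and 1006 CPM in CON replicates 1 to 3 and at 995, 612 and 2345 CPM in SAP replicates 1 to 3, and in sub-cluster 4 at 3.83, 7.30 and 44.4 CPM and at 46.7, 94.5 and 151 CPM. Every library was higher in sub-cluster 1, and the ranges did not overlap. The means over 6 libraries were 973 ± 721 (SD, n = 6) and 57.9 ± 56.1 CPM, a 16.8-fold difference. Sub-cluster 2 lay between, at 303 ± 200 CPM, above sub-cluster 3 in 6 of 6 libraries and below sub-cluster 1 in 6 of 6. Of all 4837 Ada UMIs, 29.3% came from sub-cluster 1 and 21.2% from sub-cluster 2, which held 0.901% and 3.41% of the nuclei. An Ada UMI was found in 66.7% of sub-cluster 1 nuclei, at a median of 2064 UMIs per nucleus, and in 6.17% of SMC-like (smooth muscle) nuclei, at a median of 1788. From sub-cluster 4 downward the order of classes was not resolved, since each neighbouring pair overlapped in range and no mean exceeded the next by more than 1.85-fold.

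Slc28a2 followed the same order in sub-clusters 1 and 2. Its sub-cluster 1 levels were 3481, 5429 and 3486 CPM in CON and 2008, 3110 and 1720 CPM in SAP. In sub-cluster 4 the CON libraries held 11.5, 112 and 187 CPM and the SAP libraries 651, 263 and 120 CPM. All 6 libraries were again higher in sub-cluster 1 without overlap, with means of 3206 ± 1323 and 224 ± 225 CPM, a 14.3-fold difference. Without SAP replicate 1 the mean of sub-cluster 4 was 139 CPM. Sub-cluster 3, with 103 ± 77.7 CPM, was the lowest of the 4. Sub-clusters 1 and 2 together gave most Slc28a2 UMIs, 18.8% and 32.6% of 15122. Among the ordered classes outside the epithelium, the macrophage-like class stood out with 212 ± 74.0 CPM, above the next class, fibroblast-like, in 5 of 6 libraries. Neutrophil-like nuclei, with 6 in SAP replicate 2, were not ordered. They gave 0.701% of Slc28a2 UMIs from 0.355% of all UMIs, beside 2.68% from 1.76% in macrophage-like nuclei.

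Nt5e was high in sub-clusters 1 and 2 alike. The CON libraries had 1768, 1253 and 1326 CPM in sub-cluster 1, and the SAP libraries 597, 1414 and 641 CPM. Sub-cluster 2 held 497, 761 and 985 CPM in CON and 744, 894 and 706 CPM in SAP. Neither sub-cluster was above the other throughout (4 of 6 libraries), and their means of 1166 ± 460 and 765 ± 168 CPM overlapped in range. Both were above sub-cluster 4, at 177 ± 80.6 CPM, in 6 of 6 libraries and without overlap, 6.59-fold for sub-cluster 1. Sub-cluster 3 had 62.8 ± 29.1 CPM, below sub-cluster 4 in 6 of 6 libraries. Among 6610 genes with a mean of at least 20 CPM, 8.29% were above in sub-cluster 1 in all 6 libraries, as Ada, Slc28a2 and Nt5e were, and 26.4% were below in all 6.

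**Figure D2:**
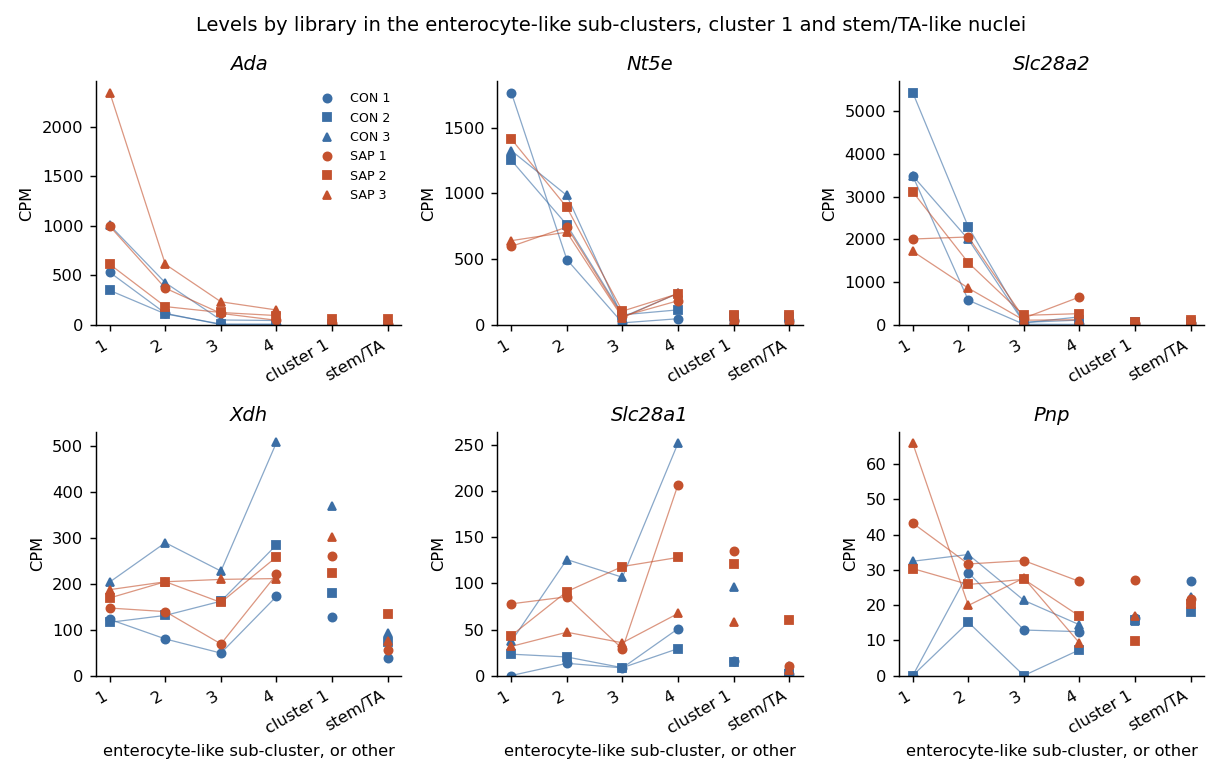
Level per library in CPM (linear axis) of 6 genes in enterocyte-like sub-clusters 1 to 4, joined by a line for each library, and in cluster 1 and stem/TA-like nuclei. Ada, Nt5e and Slc28a2 fell from sub-clusters 1 and 2 to 3 and 4, whereas Xdh and Slc28a1 were highest in sub-cluster 4.

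The windows in front of these 3 genes and of Slc28a1, which ran the other way, are shown because their sub-cluster patterns differ. All 8 genes matched a RefSeq window (build GRCr8), of which the 250 bases before the annotated start are printed 5′ to 3′ in the gene's own direction. The counts themselves were made on mRatBN7.2 and carry no coordinates. Capitals mark GC boxes (GGGCGG) and TATA boxes (TATAAA), on either strand.
Ada, chr3:172842284-172842533, minus strand: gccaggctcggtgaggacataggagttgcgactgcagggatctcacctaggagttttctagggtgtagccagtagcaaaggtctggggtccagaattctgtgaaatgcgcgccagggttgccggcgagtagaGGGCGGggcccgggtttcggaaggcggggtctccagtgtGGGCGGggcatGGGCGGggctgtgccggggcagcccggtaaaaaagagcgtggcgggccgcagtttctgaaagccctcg
Nt5e, chr8:98150675-98150924, plus strand: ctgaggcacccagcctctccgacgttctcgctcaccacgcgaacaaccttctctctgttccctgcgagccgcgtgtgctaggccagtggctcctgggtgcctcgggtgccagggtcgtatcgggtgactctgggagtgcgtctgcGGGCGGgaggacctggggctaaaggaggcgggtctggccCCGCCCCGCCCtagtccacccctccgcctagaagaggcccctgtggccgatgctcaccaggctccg
Slc28a2, chr3:129819538-129819787, plus strand: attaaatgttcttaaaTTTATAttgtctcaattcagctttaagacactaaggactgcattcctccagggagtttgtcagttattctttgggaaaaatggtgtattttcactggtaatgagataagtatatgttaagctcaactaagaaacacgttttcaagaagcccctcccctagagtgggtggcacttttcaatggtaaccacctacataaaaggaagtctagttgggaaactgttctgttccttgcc
Slc28a1, chr1:144490373-144490622, plus strand: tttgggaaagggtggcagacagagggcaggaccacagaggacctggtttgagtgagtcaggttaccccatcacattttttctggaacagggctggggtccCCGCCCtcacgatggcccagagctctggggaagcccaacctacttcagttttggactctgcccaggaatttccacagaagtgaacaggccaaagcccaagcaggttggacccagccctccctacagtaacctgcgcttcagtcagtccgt
Ada and Nt5e each had 3 GC boxes in windows of 64% and 68.8% G and C, with the reverse-strand boxes of Nt5e overlapping. Slc28a2 had none in a window of 38% G and C, and its single TATA box match lay on the reverse strand, 234 bases before the start. Slc28a1 had 1 GC box at 56.8% G and C. Over 33469 windows of the same length the median was 51.2% (quartiles 44% and 60%), and 30.5% held a GC box and 12.9% a TATA box. A plain TATA box 30 bases before the start was found for Pnp, which is not printed. Other motifs searched on both strands were the CCAAT box (CCAAT, 34.0% of windows, present for Entpd1, Pnp and Xdh), the KLF box (CACCC, 49.2%, in every window but those of Entpd1 and Xdh) and a CDX2 core (TTTATG, 11.4%, in Slc28a2). An AP-1 element (TGANTCA, 6.34%) lay in the Slc28a1 window. An HNF4 element (CAAAGTCCA, 0.338%) and an interferon response element (3.41%) matched in none of the 8. These matches describe letters in the windows.

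Slc28a1, the pyrimidine-preferring carrier, was highest in sub-cluster 4. There it stood at 50.8, 29.2 and 252 CPM in CON and 207, 128 and 67.4 CPM in SAP, against 0, 23.2 and 37.1 CPM and 77.9, 43.4 and 31.6 CPM in sub-cluster 1. Sub-cluster 4 was the higher in 6 of 6 libraries, 3.45-fold in the means (122 ± 90.4 and 35.5 ± 25.6 CPM), although the ranges over libraries overlapped. Cluster 1 came next with 73.6 ± 52.2 CPM, below sub-cluster 4 in 6 of 6 libraries. CON replicates 1 and 2 were the lowest libraries of this gene in each of the 4 sub-clusters, and CON replicate 3 was the highest of its group.

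Xdh, the last step to urate, had the same leading classes. Its levels in sub-cluster 4 were 173, 285 and 508 CPM in CON and 220, 259 and 211 CPM in SAP. Sub-cluster 1 held 122, 116 and 204 CPM in CON and 147, 169 and 187 CPM in SAP, lower in 6 of 6 libraries. The means were 276 ± 120 and 158 ± 35.3 CPM, a 1.75-fold difference within overlapping ranges. Cluster 1, with 244 ± 86.6 CPM, was not resolved from sub-cluster 4, which exceeded it in 4 of 6 libraries. The lowest mean of Xdh among the ordered classes was 50.6 CPM, in NAC-like (neuron-associated) nuclei.

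Entpd1, the enzyme at the head of the chain, was near its floor in enterocyte-like nuclei. It had 48 UMIs in 4522 enterocyte-like nuclei (4.62 ± 3.35 CPM) and 2 UMIs in sub-cluster 1. Means were highest in endothelial-like (64.6 ± 75.1 CPM), macrophage-like (42.1 ± 31.8), SMC-like (37.1 ± 26.8), cluster 12 (30.9 ± 15.6) and fibroblast-like nuclei (26.2 ± 13.9). None of these neighbours was separated from the next beyond the spread over libraries, and the endothelial-like mean was 36.7 CPM without SAP replicate 1, whose 12 nuclei gave 4 UMIs. The 136 neutrophil-like nuclei, 6 of them in SAP replicate 2, were too few for a place in that order. They gave 44 Entpd1 UMIs, 15.4% of these nuclei having at least 1. That was 3.26% of Entpd1 UMIs from 0.355% of all UMIs, beside 3.92% from 1.05% in endothelial-like nuclei.

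Slc29a1 was the scarcest of the 8, with 382 UMIs in all and 14 in the enterocyte-like class. NAC-like nuclei had 39.0 ± 35.1 CPM and SMC-like nuclei 19.0 ± 9.15 CPM, the former higher in 5 of 6 libraries with overlapping ranges. Among the ordered classes Pnp was highest in macrophage-like nuclei (60.0 ± 32.2 CPM), above endothelial-like nuclei (42.8 ± 31.5) in 5 of 6 libraries. Neutrophil-like nuclei, which were not ordered, gave 1.11% of Pnp UMIs from 0.355% of all UMIs, beside 3.96% from 1.76% in macrophage-like nuclei. Within the enterocyte-like class Pnp showed no clear order, with 28.7 ± 25.5, 26.0 ± 7.32, 20.3 ± 12.0 and 14.5 ± 6.90 CPM in sub-clusters 1 to 4.

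Free RNA from broken cells can reach the droplets of other nuclei, and its level was not measured. The lowest barcode of a library held 502 to 1000 UMIs. In CON replicate 2 and SAP replicate 1 it held 545 and 502 UMIs. There 26.2% and 12.2% of barcodes passed, against 76.4% to 79.9% in the other libraries. Barcodes that failed the limits were shallow or rich in mitochondrial UMIs, and whether some were empty droplets was not tested. In CON replicate 1, for example, they held 7.23 CPM of Ada beside 6.60 CPM over all nuclei, so that passing them is passing about the level of the whole tissue. Ada exceeded the level in failing barcodes of the same library in 6 of 6 libraries only in the enterocyte-like class and its sub-clusters 1 and 2, as did Slc28a2. Nt5e did so in these and in sub-cluster 4. Entpd1 passed in SMC-like, cluster 12 and fibroblast-like nuclei, Pnp in macrophage-like and Slc29a1 in SMC-like nuclei. Per 1000 UMIs of enterocyte markers, SMC-like nuclei held 25.4 Ada UMIs and the enterocyte-like class 31.5, and for Slc28a2 these were 68.3 and 95.7. Macrophage-like nuclei held 183 Slc28a2 UMIs on that scale, and sub-cluster 1 held 117 Ada UMIs. Entpd1 ran the other way, from 0.517 in enterocyte-like to 34.9 in SMC-like and 45.6 in macrophage-like nuclei. Values of Ada and Slc28a2 in classes outside these are given as measured, with no claim that those nuclei expressed the gene.

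Across the 20 classes, clusters and sub-clusters, all drawn from the same 6 libraries, 3 of the genes went together. The Pearson correlation of log2(mean CPM + 1) was 0.97 between Nt5e and Slc28a2, 0.94 between Ada and Slc28a2 and 0.88 between Ada and Nt5e. Of the 20, only sub-clusters 1 and 2 had Ada and Slc28a2 above the failing barcodes in 6 of 6 libraries. Those sub-clusters were drawn after the values were seen. How far the correlations and likenesses of these genes rested on them was not tested. Apoa4, named below, was also the gene that numbered the sub-clusters. Xdh and Slc28a1 formed another pair, at 0.86, as did Entpd1 and Slc29a1, at 0.74. Leaving out the 8 themselves, of genes with at least 500 UMIs those most like Ada were Apoa4 (0.97), Isg15 (0.97) and Nfkbia (0.95), an inhibitor of NF-kB. Nt5e was most like Pik3c2a (0.98), Ripk3 (0.96) and Herc6 (0.95), and Slc28a2 most like Plaur (0.97), Ripk3 (0.96) and Samd9 (0.96). For Slc28a1 they were Slc5a12 (0.94), a lactate carrier, Slc30a10 (0.92) and Ipmk (0.92), and for Xdh Trim31, Ipmk and Slc9a3, each at 0.90. Entpd1 was most like Plxnd1 (0.93), Ttc28 (0.93) and Elk3 (0.92), Slc29a1 like Cplane1 (0.92), Ftx (0.91) and Abi2 (0.91). Pnp had the weakest likeness, to Cd163 (0.75), a macrophage scavenger receptor, Apol3 (0.74) and Rab13 (0.73).

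A split of enterocyte-like nuclei by landmark genes of the tip and of the lower villus left few nuclei on the tip side, and Reg3b and Reg3g carried most of the landmark UMIs. Only 27 of 4522 nuclei had more tip than lower-villus landmark UMIs after each nucleus was thinned to 1200 UMIs, and 31 lay within 1 UMI of the border. In the 4 libraries that could be compared in this planned split, Ada and Slc28a2 were higher on the tip side in 2 and Nt5e in 3. Leaving out Reg3b and Reg3g, a choice made after the data were seen, gave 102 tip nuclei, none of them in CON replicate 2 and 77 in SAP replicate 3. In the other 5 libraries Ada, Slc28a2 and Nt5e were higher in tip nuclei each time, by 2.97-fold, 2.21-fold and 5.19-fold in the means over these 5. Pnp had a larger ratio than these, 6.35-fold, and was higher in tip nuclei in 4 of 5 libraries. In the planned split its ratio was 0.189, with the tip side higher in 0 of 4. The Nt5e value rested on CON replicate 1, with 6078 CPM from 4 nuclei, and without it was 2.20-fold. Between 3 and 15 nuclei stood behind the tip level of 4 of these libraries, and 1 Ada UMI behind that of CON replicate 1.

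Over all nuclei Ada had the largest difference of the 8 genes between SAP and CON. Its levels were 6.60, 8.24 and 44.2 CPM in CON and 65.4, 85.0 and 103 CPM in SAP. The groups did not overlap, with CON replicate 3 nearest to SAP. SAP was higher by 2.24 ± 0.58 on the log2 scale (± SE, edgeR quasi-likelihood test, n = 3 and 3), with an adjusted p of 0.545 over 19187 genes. A gene counted as called when its adjusted p was under 0.05 and its log2 change 0.5 or more. Of these genes 0% were called, 8.43% had an unadjusted p under 0.05 and 4.53% were higher in SAP without overlap. DESeq2 on the same sums gave Ada 2.25 ± 0.57 with adjusted p = 0.0195, and called 192 genes (1.08% of those with an adjusted p). Without CON replicate 3 the change of Ada was 3.34 (edgeR, adjusted p = 0.0561), and it was not called in edgeR with any 1 library left out.

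The purine and pyrimidine carriers were higher in SAP in their means but overlapped. Slc28a2 had 49.5, 137 and 187 CPM in CON and 245, 289 and 134 CPM in SAP (log2 fold change 1.02 ± 0.47). Slc28a1 had 5.25, 7.02 and 49.4 CPM in CON and 60.7, 94.8 and 21.1 CPM in SAP (1.83 ± 0.86), so that SAP replicate 3 lay below CON replicate 3. Nt5e, at 53.4, 88.6 and 107 CPM in CON and 96.2, 195 and 83.8 CPM in SAP (0.69 ± 0.41), was set apart in SAP replicate 2 alone. Both Slc28a1 and Slc28a2 had adjusted p = 0.617 and Nt5e adjusted p = 0.70, so none was called.

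The remaining 4 genes differed by less than their spread over all nuclei. Xdh stood at 54.8, 101 and 190 CPM in CON and 121, 190 and 135 CPM in SAP (log2 fold change 0.49 ± 0.36). Pnp was the steadiest, with 23.7, 16.7 and 20.6 CPM in CON and 26.7, 16.1 and 25.6 CPM in SAP (0.11 ± 0.37). Entpd1 had 13.8, 7.37 and 18.4 CPM in CON and 6.49, 3.74 and 21.2 CPM in SAP (-0.50 ± 0.56), with SAP replicate 3 above all CON libraries. Slc29a1 had 2.57, 3.33 and 5.67 CPM in CON and 1.98, 1.87 and 6.07 CPM in SAP (-0.28 ± 0.47).

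Shares of nuclei moved with these sums. Enterocyte-like nuclei made up 7.29%, 6.84% and 8.72% of nuclei in CON and 16.7%, 24.5% and 8.74% in SAP, and sub-cluster 1 made up 0.483% ± 0.224 of nuclei in CON and 1.5% ± 0.212 in SAP (SD, n = 3 each). In sums over all nuclei, more cells of a class and more RNA per cell cannot be told apart. Levels were therefore recomputed at equal class shares and compared as log2(CPM + 1), where the smallest exact p that 3 rats against 3 allow is 0.1. Ada then stood at 22.9 ± 22.7 CPM in CON and 83.6 ± 35.5 CPM in SAP, without overlap (log2 difference 2.15, exact permutation test, two-sided, p = 0.1). With the enterocyte-like sub-clusters also held equal the Ada difference was 1.67 (exact p = 0.1). Within enterocyte-like nuclei alone, at equal sub-cluster shares, it was 1.30 and the groups overlapped (exact permutation test, p = 0.3). Holding shares equal does not remove free RNA carried into other classes. Ada exceeded the failing barcodes in 0 of 6 libraries in Paneth-like, goblet-like, T-like and stem/TA-like nuclei and clusters 1, 2 and 8, among others. In the enterocyte-like class it did so in 6 of 6. The part of free RNA in these differences was not tested. Over all classes at equal class shares Slc28a1 differed by 1.60 (exact p = 0.2), and the other 6 genes had exact p of 0.4 or more. A test with same-numbered libraries as pairs was added after the data were seen, and its smallest exact p is 0.25. The pairing was inferred from these same counts and is given by no label, so the pairs may be arbitrary. Ada and Pnp were higher in SAP in 3 of 3 such pairs and Entpd1 in 0 of 3, each at that smallest p (exact paired permutation test). The share of all genes moving 1 way in all 3 pairs is not given here, so this count has no background beside it. The same holds for the lack of overlap of Ada at equal class shares. Pnp went from 22.9, 15.3 and 20.6 CPM in CON to 26.8, 17.9 and 24.9 CPM in SAP, and Entpd1 from 13.7, 8.98 and 16.1 CPM to 8.19, 3.39 and 15.9 CPM. Slc28a2 fell from 1.02 in the fit over all nuclei to 0.43 here, and to 0.02 with sub-clusters held equal. Nt5e, at 0.18 and then -0.07, kept no direction.

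**Figure D3:**
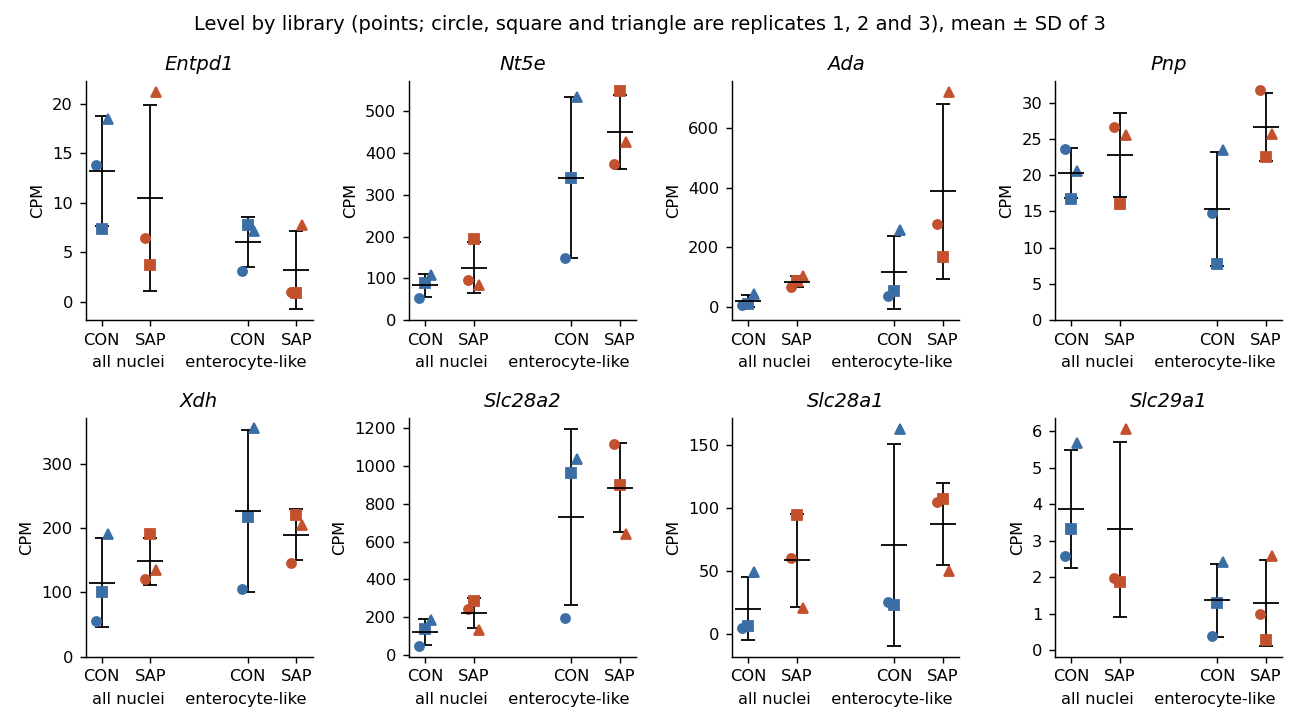
Level per library in CPM (linear axes) of the 8 genes over all nuclei and over enterocyte-like nuclei, CON in blue and SAP in orange-red, with the mean and SD of 3 libraries. Ada over all nuclei was the only panel in which no SAP library fell to the CON range.

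Within the enterocyte-like class no gene was called, and each overlapped between the groups. Ada held 34.9, 53.3 and 257 CPM in CON and 276, 167 and 721 CPM in SAP, CON replicate 3 lying above SAP replicate 2. Its log2 fold change was 1.84 ± 0.76 with an adjusted p of 0.705 (edgeR) over 11223 genes, of which 0% were called, 6.99% had an unadjusted p under 0.05 and 3.07% were higher in SAP without overlap. DESeq2 called 16 genes here (0.151%) and none of the 8. Nt5e differed by 0.54 ± 0.38, Pnp by 0.75 ± 0.47, Slc28a2 by 0.51 ± 0.51 and Slc28a1 by 0.41 ± 0.71. Xdh differed by -0.13 ± 0.36 and Entpd1 by -0.79 ± 0.80, and Slc29a1 was too low to be tested. Over all epithelial nuclei Ada was higher in SAP without overlap, by 2.33 ± 0.67 (adjusted p = 0.397), where 0% of 16982 genes were called, 11.2% had an unadjusted p under 0.05 and 5.4% were higher without overlap. DESeq2 called it there too, at adjusted p = 0.0192, among 281 genes (1.93%).

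The 8 genes could be tested 97 times over 17 classes and clusters, the enterocyte-like class among them, and none was called in edgeR, the lowest adjusted p being 0.255. Pooled over these classes, edgeR called 0.0263% of gene tests, DESeq2 0.444%, and 8.13% had an unadjusted p under 0.05. Of the whole set of 134 member tests, epithelial sums and sub-clusters included, 23 had an unadjusted p under 0.05, 14 of them for Ada. DESeq2 called Ada and Slc28a1 in cluster 2, at adjusted p = 0.0380 and 0.0310, where it called 2.09% of genes. Ada was positive in 13 of 13 classes and clusters tested, by 1.01 (cluster 12) to 2.61 (cluster 8) on the log2 scale. These classes were drawn from the same 6 rats, so their tests are not independent, and the share of all genes positive throughout is not given here. SAP was higher without overlap in 6 of them, namely Paneth-like, fibroblast-like, macrophage-like and tuft-like nuclei and clusters 2 and 8, against 5.39%, 4.3%, 3.44%, 4.69%, 6.44% and 6.59% of all genes in that order. In barcodes that failed the limits Ada moved likewise, at 15.8 ± 13 CPM in CON (7.23 to 30.8) and 68.8 ± 21.2 CPM in SAP (44.8 to 84.7), and the part of free RNA in the class differences was not tested. Ada exceeded these barcodes in 0 of 6 libraries in Paneth-like and tuft-like nuclei and clusters 2 and 8. In fibroblast-like and macrophage-like nuclei it did so in 2 of 6. Slc28a1 was positive in 13 of 13 as well, from 0.41 in the enterocyte-like class to 3.14 in cluster 2, but overlapped in all 13. Xdh was positive in 14 of 16 and Slc28a2 in 13 of 16, each with overlap throughout.

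**Figure D4:**
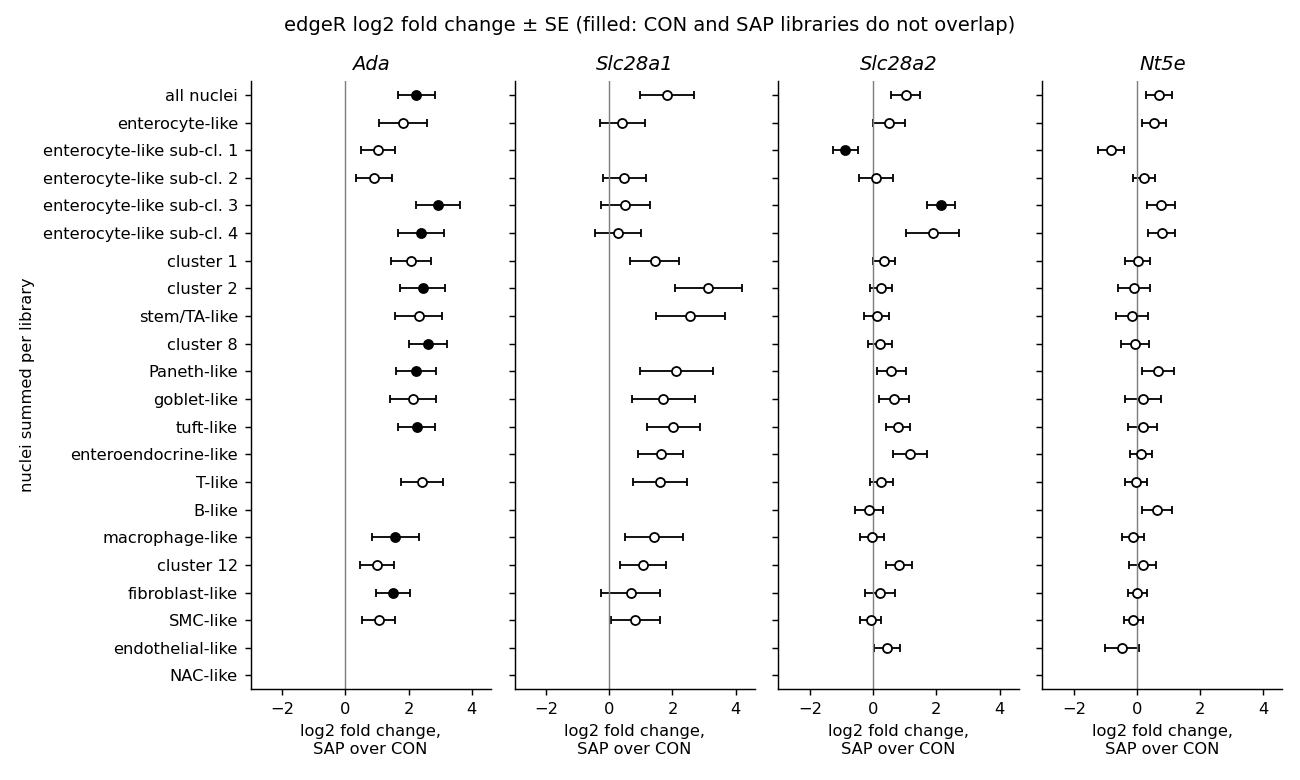
The log2 fold change of SAP over CON with its SE (edgeR) for 4 genes over all nuclei, enterocyte-like nuclei, their sub-clusters and the other classes. Filled points mark groups that do not overlap, and a missing point was not tested. Ada points all lie right of 0, and Slc28a2 lies left of 0 in sub-cluster 1 and right of it in sub-cluster 3.

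In SMC-like nuclei Entpd1 was lower in SAP without overlap, but it was not called. It held 36.8, 71.8 and 64.0 CPM in CON and 11.1, 6.15 and 32.6 CPM in SAP. Every SAP library lay below every CON library (-1.46 ± 0.50, adjusted p = 0.255), as did 9.62% of the 8964 genes tested in that class. Entpd1 was also negative in 8 of the 9 classes and clusters in which it was tested, and positive in endothelial-like nuclei (0.89 ± 0.85), where SAP replicate 1, with 204 CPM, rested on 12 nuclei and 4 UMIs. Nt5e was positive in 8 of 16, from -0.48 in endothelial-like to 0.66 in Paneth-like nuclei. Pnp in Paneth-like nuclei was higher in SAP without overlap, at 24.2 to 38.6 CPM against 19.9 to 22.9, but its log2 fold change was 0.09 ± 0.44. Of the 8913 genes tested in Paneth-like nuclei, 5.39% were higher in SAP without overlap.

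Sub-clusters were also fitted apart, a choice made after the data were seen, and again none of the 8 genes was called in edgeR. Pooled over the 4 sub-clusters, edgeR called 0.0125% of gene tests, DESeq2 0.103%, and 6.84% had an unadjusted p under 0.05. Slc28a2 in sub-cluster 1 was lower in SAP, with 2008, 3110 and 1720 CPM below all of 3481, 5429 and 3486 CPM in CON (-0.88 ± 0.40, adjusted p = 0.894, against 4.8% of 2977 genes lower without overlap). In sub-cluster 3 it ran the other way, from 14.8, 59.7 and 49.8 CPM in CON to 160, 223 and 111 CPM in SAP (2.15 ± 0.46, adjusted p = 1.00, against 2.19% of 5794 genes higher without overlap). In sub-cluster 3 Slc28a2 exceeded the failing barcodes of the same library in only 1 of 6 libraries. The difference between the changes in sub-clusters 1 and 3 was -2.88 ± 0.61 (edgeR interaction, adjusted p = 0.265), and 0% of 5579 genes were called. It passed without SAP replicate 3, at -3.07 (adjusted p = 0.0345), as did that of Ada, at -2.71. Ada was higher in SAP without overlap in sub-clusters 3 and 4, by 2.93 ± 0.69 and 2.38 ± 0.73 (against 2.19% and 6.07% of genes), and by 1.03 ± 0.55 and 0.91 ± 0.58 in sub-clusters 1 and 2 with overlap. DESeq2 called Ada in sub-cluster 4 (adjusted p = 0.0399, 1.02% of genes called), and edgeR did so when CON replicate 3 was left out. Against sub-cluster 4, the changes in sub-cluster 1 were lower for Ada (-1.55 ± 0.53), Nt5e (-1.50 ± 0.50) and Slc28a2 (-2.49 ± 1.13) and higher for Slc28a1 (1.38 ± 0.67) and Xdh (0.83 ± 0.41), with Pnp at 1.22 ± 1.00, none of them called (adjusted p of 0.596 or more, 0.0154% of 6487 genes called). Without CON replicate 3 those of Ada, Nt5e and Slc28a2 passed, at -2.68, -2.24 and -3.44, with adjusted p of 0.0027, 3.95e-05 and 2.15e-08 in edgeR. The 0.0154% belongs to the fit with all libraries, and the share of genes called with a library left out is not given here.

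The villus was set against the crypt by testing whether the SAP difference in enterocyte-like nuclei equalled that in stem/TA-like nuclei of the same rats. None of the 7 genes tested was called, with 0% of 13204 genes called and 638 at an unadjusted p under 0.05. Slc28a1 had the largest difference, -1.88 ± 0.71 (edgeR, adjusted p = 0.958), with stem/TA-like levels of 1.15, 1.76 and 10.6 CPM in CON and 10.8, 60.0 and 6.10 CPM in SAP. Nt5e differed by 0.96 ± 0.49, Pnp by 0.81 ± 0.41 and Ada by -0.38 ± 0.82.

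Around the 8 genes, 63 others of nucleotide metabolism were listed and 62 were in the tables. In enterocyte-like nuclei 42 were tested, 0 were called higher and 0 lower, and their median log2 fold change was -0.04 beside -0.02 over all genes. Of the 42, 2 were higher and 0 lower in SAP without overlap, beside 3.07% and 5.17% of all genes in this class. Entpd2, an ectonucleotidase, was at 16.3, 10.4 and 52.4 CPM in CON and 74.5, 65.2 and 62.3 CPM in SAP (1.38 ± 0.53, adjusted p = 0.705). Dck, the deoxycytidine kinase of nucleoside salvage, was the other (0.82 ± 0.36). Alpi, intestinal alkaline phosphatase, which also strips phosphate from AMP, varied widely within SAP, with 2.98, 0 and 298 CPM against 81.1, 41.6 and 40.4 CPM in CON. Tk1, the thymidine kinase of dividing cells, had -2.00 ± 0.63 (adjusted p = 0.705) with overlap.

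By group of the list, 4 of 5 genes of extracellular breakdown were positive, 3 of 10 of salvage and 4 of 10 of purine synthesis, where Adss1 (0.91) and Ppat (-0.86) moved furthest. Transport had 0 of 4 positive, with Abcg2, a urate exporter, at -0.39 and the urate carrier Slc2a9 at -0.22. Nucleotidases and AMP deaminases had 4 of 6 positive (Nt5c3b -0.53, Ampd2 0.52), pyrimidine breakdown 2 of 4 (Upp1 0.53, Tymp 0.49) and purine breakdown 1 of 2 (Adal 0.29, Gda -0.02). Adora2b, at 0.31, was the single adenosine receptor with enough UMIs to test. Over all nuclei 59 of the list were tested and 0 called, with Entpd2, Nt5c and Upp1 higher and Tk1, Uck1, Uck2 and Pfas lower in SAP without overlap, against 4.53% and 4.84% of all genes. In the enterocyte-like sub-clusters, which were not shown to be positions along the villus, 55 of the list had a level in each. Entpd2 and Nt5c2 were above in sub-cluster 1 against sub-cluster 4 in all 6 libraries, with 81.4 ± 26.5 against 38.3 ± 24.8 CPM and 59.9 ± 24.2 against 30.4 ± 14.6 CPM. A further 9 were below in all 6, Abcg2 among them with 325 ± 173 against 553 ± 178 CPM. Of all genes of at least 20 CPM, 8.29% were above and 26.4% below. The 55 were taken without that floor, so their counts cannot be set against these shares.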

How the data were processed

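Single-nucleus RNA sequencing was run on ileum from 3 CON and 3 SAP rats. The deposited values are raw UMI counts of genes by barcodes, which the authors made with dnbc4tools, and the submitters' processing notes name mRatBN7.2 and Seurat 4.3.0. The study's limits of 1200 UMIs, 500 genes and 5% mitochondrial UMIs were applied, and 2048 nuclei marked as doublets (the 5% with the highest Scrublet scores per library) were kept in the main results. Counts were log-normalized with scanpy 1.11.5 and clustered with leidenalg 0.10.2 at a resolution of 0.8, on 2000 variable genes, 30 principal components and a numpy version of Harmony, without the 8 genes and the pathway list among the clustered genes. A cluster was called X-like where the mean log2 ratio of its markers was at least 0.5 and led the next class by at least 0.8, limits set after clusters were seen, with at least 3 markers detected and no more markers of another class than of its own among its top 10 genes. Where stem and TA, or endothelial and lymphatic endothelial, led together they were joined, and the cluster that B and T led together was split. Enterocyte-like and lymphoid nuclei were sub-clustered at 0.3 and 0.2 after the data were seen.

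UMIs were summed per library and class and compared with edgeR 4.0.16 under R 4.3.3 (filterByExpr, TMM, robust quasi-likelihood fit, Benjamini-Hochberg over all genes tested), in classes with at least 10 nuclei in every library. DESeq2 1.42.0 was an alternative. A call needed an adjusted p below 0.05 with a log2 change of 0.5 or more. SE is the log2 fold change over the square root of F. Levels in CPM use library totals alone. The fits were tested on simulated data. There edgeR called 2.13% of true 2-fold changes over all nuclei and 2.17% in enterocyte-like nuclei. Of true 4-fold changes it called 27.7% and 44.2%. Each library is a separate rat. Counting may split reads of related or overlapping genes, and no strand setting is given in the sources used here.

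The 8 genes and all lists were chosen with earlier results of these data known. All 8 are named, with the 3 genes most like each (Pearson correlation over classes, genes with at least 500 UMIs), and of the pathway list the 2 largest changes per group in enterocyte-like nuclei. Other genes named without overlap or along the sub-clusters were chosen after their values were seen. CON and SAP libraries of the same number were correlated in their deviations from the group mean, which gave 0.554, 0.164 and 0.525 over all nuclei (other pairs -0.603 to 0.159) and 0.444, 0.0975 and 0.278 in enterocyte-like nuclei. In epithelial nuclei the same-numbered values were 0.563, 0.0418 and 0.439. The numbers were used as pairs in an added test and as a block. That pairing was inferred from these same counts, did not hold equally in every class, and the labels name no shared litter or day.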

Additional observations from a re-analysis of the deposited data

Results flagged for a closer look

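The change of Slc28a2 between SAP and CON pointed opposite ways in 2 sub-clusters of the same nuclei. Its log2 fold change was -0.88 in enterocyte-like sub-cluster 1, where every SAP library was below every CON library, and 2.15 in sub-cluster 3, where every SAP library was above. The test of the difference itself gave -2.88 ± 0.61 (edgeR interaction, adjusted p = 0.265), which did not pass. The nuclei behind it were 25 to 103 per library in sub-cluster 1 and 65 to 256 in sub-cluster 3. Of all genes, 4.8% were lower without overlap in sub-cluster 1 and 2.19% higher without overlap in sub-cluster 3. Slc28a2 exceeded the failing barcodes of the same library in 6 of 6 libraries in sub-cluster 1. In sub-cluster 3 it did so in 1 of 6, so the rise there lay mostly among values under that level.

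Barcodes outside the comparisons, those that failed the limits, carried more Ada in SAP than in CON. The mean was 68.8 CPM in the 3 SAP libraries and 15.8 CPM in the 3 CON libraries, without overlap (44.8 to 84.7 and 7.23 to 30.8 CPM). The other 7 genes overlapped between the groups in these barcodes. The share of all genes without overlap was not computed for them.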

How the results depend on the processing

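Of the 8 genes none was called in the edgeR fits under RLE size factors, a 1% mitochondrial limit, removal of marked doublets or the replicate block (0 calls in each, so the pairing changed no call). The 1% limit left 384 and 1908 nuclei in SAP replicates 1 and 2 and could be run in 9 of 16 other classes. DESeq2 called 1 gene over all nuclei, 1 over epithelial nuclei, 2 in other classes and 1 in sub-clusters. Without the filter on low counts there were 7 calls in other classes (Ada in Paneth-like, T-like, enteroendocrine-like, goblet-like and tuft-like nuclei and cluster 8, Slc28a1 in cluster 8) and 3 in sub-clusters (Ada in 3 and 4, Slc28a2 in 3). That setting also gave 1 call in the villus against crypt test (Slc28a1, -1.80, adjusted p = 0.0206) and 1 between sub-clusters 1 and 3 (Slc28a2, -2.75, adjusted p = 0.0411). Leaving out 1 library gave 0 to 1 calls in sub-clusters (Ada in sub-cluster 4 without CON replicate 3), 0 to 3 between sub-clusters 1 and 4 and 0 to 2 between 1 and 3. Fits with 1 library left out pool the spread of the remaining ones. The shares of all genes called without the filter or with 1 library left out are not given here, so these calls have no background beside them. Across its alternatives over all nuclei Ada ran from 1.75 to 3.34, with adjusted p from 0.0195 to 1.00.

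Directions turned in the values that follow, and the cause was not tested. At the 1% limit Pnp was -0.17 over all and -0.15 over epithelial nuclei, and Slc29a1 0.13 over epithelial nuclei. In enterocyte-like nuclei Xdh was 0.075 without integration and 0.11 with unnamed clusters added. With 1 library left out, Pnp ran from -0.13 to 0.48 over all and from -0.088 to 0.51 over epithelial nuclei, and Slc29a1 from -0.48 to 0.084 there. In enterocyte-like nuclei Xdh ran from -0.36 to 0.34 and Slc28a1 from -0.011 to 1.78. In the villus against crypt test Entpd1 ran from -0.41 to 3.56 and Ada from -1.27 to 0.85. At equal class shares Nt5e ran from -0.13 to 0.36, Xdh from -0.070 to 0.71 and Slc28a2 from -0.15 to 0.75, and Nt5e was -0.070 with sub-clusters as classes. Mean levels in enterocyte-like nuclei moved with how the class was drawn, to 601 CPM without integration and 217 CPM with unnamed clusters added for Nt5e, and to 1402 and 413 CPM for Slc28a2. With 3 rats a group, and 14 to 48 UMIs of Slc29a1 and Entpd1 in enterocyte-like nuclei, small differences could not be resolved. In the simulated data most true 4-fold changes were also missed, with 27.7% called over all nuclei and 44.2% in enterocyte-like nuclei.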
